A study of Mus musculus with 10 samples.

Results

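Of 211107 separate accessible regions found by ATAC-seq in Myc-CaP cells, 85377 were called in each of the 5 groups of the study. Of these, 32976 lay outside protein-coding genes and away from transcript starts. These intergenic regions are 38.6% of the regions called in every group and 15.6% of all regions. They were chosen by position and by being called: the peak intervals of the 5 lists were merged where they shared 1 bp, and a merged region was kept when all 5 lists overlapped it, when it touched no window of 1000 bp on either side of a GENCODE M21 transcript start, and when it touched no protein-coding gene body. The other regions called in every group were 20074 start-site regions and 32327 gene-body regions. Since each region had to be called in every list, the levels given here describe the chosen regions and support no test.

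Myc-CaP is a mouse prostate cancer line of FVB/NJ background, and ATAC-seq reads mark open chromatin, which lets in the transposase that cuts and tags it. The labels give 10 libraries in 5 groups of 2, all taken at 48 h: Ctrl received nothing, Oxali received oxaliplatin and Cispl cisplatin, each at 2 µM, IFNγ received interferon-γ (labelled as 1000 pg with no volume), and Oxali + IFNγ, called the combination here, received oxaliplatin at 2 µM with that interferon. All groups are cultures of this 1 line and differ only in these agents. The authors pooled both libraries of a group before they called peaks, so each group has 1 list with no replicate values, no SD and no test, and every difference given is between pooled lists. Among markers of prostate epithelium, Krt8 and Hoxb13 had a start-site region in every list, and Krt18, Epcam and Cdh1 did not. Of 7 markers of other cell types, 1 did, namely Cd68, at 22.1 times the genome background in Ctrl against 88.8 times for Krt8.

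Open chromatin away from genes holds many enhancers and insulators. Enhancers bind transcription factors such as AP-1, a dimer of Fos and Jun proteins, and can act on promoters over long distances, and they differ far more between cell types and after signals than promoters do. Insulators bind CTCF, the zinc-finger protein that anchors chromatin loops, and are known to be open in most cell types. Both platinum drugs form crosslinks in DNA. The receptor of IFNγ, a T-cell and NK-cell cytokine, signals through the JAK and STAT proteins.

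The level of a region is the highest pileup of reads among its summits divided by the genome background of the list, so that a level of 10.0 would be 10 times the average coverage. The genome background, which follows sequencing depth, ranged from 9.62 in IFNγ to 13.8 in Cispl and was 12.1 in Ctrl, and IFNγ was thus the shallowest list at 79.3% of Ctrl. Peak lists ended at a −log10 p of 2.00 except for Cispl, which ended at 2.99, so weak regions are missing from that list. Over all 85377 regions the median log2 ratio of levels to Ctrl was -0.25 for IFNγ, 0.15 for Oxali, 0.07 for Cispl and 0.14 for the combination. It was -0.13 for Cispl to Oxali, -0.04 for Oxali + IFNγ to Oxali and 0.34 for Oxali + IFNγ to IFNγ. Ratios of the intergenic regions are read against these shifts, and the treated lists all share the Ctrl list. Where 5 values stand without names, they follow the order Ctrl, Oxali, Cispl, IFNγ, Oxali + IFNγ. A region raised or lowered 2-fold is one whose level was at least 2 times higher or lower, a description of 2 lists and not a call of a changed region.

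The sequences printed here run from 100 bases before to 100 bases after the summit of the strongest Ctrl peak of 11 intergenic regions, read from the plus strand of mm10, and each region is named by its nearest protein-coding gene. The regions near Xrcc2, Hpgd and Grm8 had some of the largest levels gained with a platinum drug, those near Gadd45g and Lama5 some of the largest lost, and that near Phactr1 was much lower in Cispl than in Oxali. The region near Akr1e1 was high in IFNγ alone, and that near Ppara was among the steadiest. The regions near Fos, Myc and Eda2r carried the largest ratios of their gene lists. Capitals mark exact matches to the consensus motifs described with the motif results, on either strand, and lower case marks everything else.
Xrcc2, chr5:25604737-25604937, with no match: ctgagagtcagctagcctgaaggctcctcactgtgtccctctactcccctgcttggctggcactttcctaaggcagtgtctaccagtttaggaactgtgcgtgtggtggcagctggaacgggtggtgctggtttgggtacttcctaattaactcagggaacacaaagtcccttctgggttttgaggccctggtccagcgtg
Hpgd, chr8:56410463-56410663, with a GATA match: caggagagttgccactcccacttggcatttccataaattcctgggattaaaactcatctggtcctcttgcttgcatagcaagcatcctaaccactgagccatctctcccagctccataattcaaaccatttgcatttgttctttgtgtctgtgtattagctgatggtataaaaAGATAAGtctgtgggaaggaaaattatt
Grm8, chr6:28168425-28168625, with a steroid receptor match: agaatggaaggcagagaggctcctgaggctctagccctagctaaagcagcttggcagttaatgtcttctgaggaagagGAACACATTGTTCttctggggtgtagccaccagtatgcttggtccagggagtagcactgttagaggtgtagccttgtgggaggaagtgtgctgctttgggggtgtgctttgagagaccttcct
Gadd45g, chr13:52133072-52133272, with no match: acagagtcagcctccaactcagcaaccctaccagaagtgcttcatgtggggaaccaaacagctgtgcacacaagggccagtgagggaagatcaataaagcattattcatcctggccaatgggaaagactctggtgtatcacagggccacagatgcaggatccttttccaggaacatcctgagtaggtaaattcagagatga
Lama5, chr2:180238691-180238891, with GATA, AP-1 and TEAD matches in that order: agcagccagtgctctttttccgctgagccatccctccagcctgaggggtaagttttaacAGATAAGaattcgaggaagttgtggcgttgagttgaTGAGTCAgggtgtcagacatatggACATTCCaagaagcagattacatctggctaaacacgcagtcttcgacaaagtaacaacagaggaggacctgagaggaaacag
Phactr1, chr13:42651973-42652173, with RUNX and AP-1 matches in that order: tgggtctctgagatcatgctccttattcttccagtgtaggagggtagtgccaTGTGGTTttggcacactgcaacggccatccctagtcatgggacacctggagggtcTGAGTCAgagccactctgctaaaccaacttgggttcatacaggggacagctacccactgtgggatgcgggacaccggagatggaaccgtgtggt
Akr1e1, chr13:4778444-4778644, with 5 AP-1 matches: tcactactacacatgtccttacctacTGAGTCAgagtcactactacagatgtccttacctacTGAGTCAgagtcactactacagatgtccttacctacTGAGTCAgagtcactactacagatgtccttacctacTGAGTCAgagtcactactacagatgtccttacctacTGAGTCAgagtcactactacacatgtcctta
Ppara, chr15:85716139-85716339, with a CTCF match: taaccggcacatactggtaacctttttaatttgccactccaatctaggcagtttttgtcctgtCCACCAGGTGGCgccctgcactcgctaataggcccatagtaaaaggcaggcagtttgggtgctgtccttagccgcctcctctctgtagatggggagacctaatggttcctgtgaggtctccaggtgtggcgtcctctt
Fos, chr12:85497911-85498111, with an NF-kB match: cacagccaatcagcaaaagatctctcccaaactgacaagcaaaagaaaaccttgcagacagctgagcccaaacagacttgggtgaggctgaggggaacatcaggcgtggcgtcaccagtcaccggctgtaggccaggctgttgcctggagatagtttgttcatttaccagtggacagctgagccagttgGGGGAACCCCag
Myc, chr15:62245428-62245628, with an AP-1 match: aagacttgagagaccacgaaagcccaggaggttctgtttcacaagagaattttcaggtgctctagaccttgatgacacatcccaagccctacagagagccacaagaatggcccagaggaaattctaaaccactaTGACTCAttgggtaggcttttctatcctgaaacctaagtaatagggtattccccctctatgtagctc
Eda2r, chrX:97680515-97680715, with 1 TEAD match and 5 ISRE matches: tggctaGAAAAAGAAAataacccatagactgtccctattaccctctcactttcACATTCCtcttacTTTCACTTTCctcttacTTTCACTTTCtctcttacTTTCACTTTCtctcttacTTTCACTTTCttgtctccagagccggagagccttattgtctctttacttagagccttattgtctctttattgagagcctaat
In the Akr1e1 window the AP-1 match recurred every 36 bases, from 74 bases before the summit to 70 bases after it. In the Eda2r window the 5 ISRE matches, the element bound by interferon regulatory factors, stood 17 to 60 bases apart.

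The intergenic regions were narrower and far weaker than start-site regions and closely resembled gene-body regions. Their median width was 693 bp, against 1102 bp at start sites and 684 bp in gene bodies, and together they covered 25.0 Mb. Their median GC content was 47.4%, against 54.7% at start sites. The median share of masked repeat was 16.6%, and 14.4% of the regions were more than 50% masked. The median level was 9.14 in Ctrl and 8.00 in IFNγ, against 12.4 in Oxali, 11.6 in Cispl and 12.5 in the combination, so that the 3 platinum lists (Oxali, Cispl and Oxali + IFNγ) were high and IFNγ low. Start-site regions ran in another order, with medians of 46.0 in Ctrl and 35.0 in IFNγ, and of 41.7 in Oxali, 36.1 in Cispl and 34.2 in the combination. Gene-body regions had medians of 9.23 in Ctrl and 12.1 in Oxali. From the 25th to the 75th percentile the intergenic levels ran from 4.86 to 19.6 in Ctrl and from 6.92 to 23.7 in Oxali, a spread between regions far wider than any difference between the list medians. Within 1 region the 5 lists usually lay close together: the median range over the lists was 0.87 on the log2 scale, and 72.5% of the regions were within 2-fold of Ctrl in every treated list. Oxali + IFNγ was the highest list at 29.7% of the regions and IFNγ the lowest at 46.5%. These shares depend on the scale of each list, and IFNγ had a median log2 ratio of -0.25 over all regions called in every list.

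The rule decides how weak a region can be. A further 8100 intergenic regions were called in exactly 4 lists, of which 4407 were missing from IFNγ, 2254 from Ctrl, 670 from Oxali, 440 from Cispl and 329 from Oxali + IFNγ. Regions missing from IFNγ had a median level of 3.13 in Ctrl and 5.06 in Oxali. Regions missing from Ctrl had a median of 4.52 in Oxali and 3.01 in IFNγ. Just inside the rule, the 3298 weakest of the 32976 regions had medians of 3.05 in Ctrl and 3.12 in IFNγ, against 3.64 in Oxali, 3.71 in Cispl and 3.87 in the combination. At the edge of the start-site window, 1051 intergenic regions lay within 1500 bp of a start and had a Ctrl median of 13.0, close to the 13.4 of 1119 start-site regions that lay 500 to 1000 bp from a start.

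The level was lower far from genes than near them in every list. The median distance to the nearest protein-coding gene was 19.1 kb (quartiles of 6.85 and 55.2 kb), and the farthest lay 2256 kb away. The 6146 regions under 5 kb from a gene had median levels of 12.9 in Ctrl and 10.8 in IFNγ, against 15.1 in Oxali, 14.8 in Cispl and 14.7 in the combination. In the 10710 regions at 5 to 20 kb these were 9.47, 12.3, 11.8, 8.21 and 12.3. In the 7190 at 20 to 50 kb they were 8.32, 12.0, 10.8, 7.38 and 12.3, and in the 4114 at 50 to 100 kb they were 7.91, 12.1, 10.8, 6.96 and 12.3. From 20 to 250 kb the levels were thus nearly flat, with medians at 100 to 250 kb (3311 regions) of 7.74, 11.3, 9.95, 6.96 and 11.8. At 250 to 500 kb (1083 regions) they were 7.41, 10.8, 9.15, 7.07 and 10.9. The 422 regions at 500 kb or more were the weakest, at 6.34, 8.03, 7.45, 6.76 and 8.68. Between the nearest and the farthest class the median dropped by 1.03 on the log2 scale in Ctrl and by 0.99 in Cispl, 0.91 in Oxali, 0.76 in the combination and 0.68 in IFNγ.

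**Figure D1:**
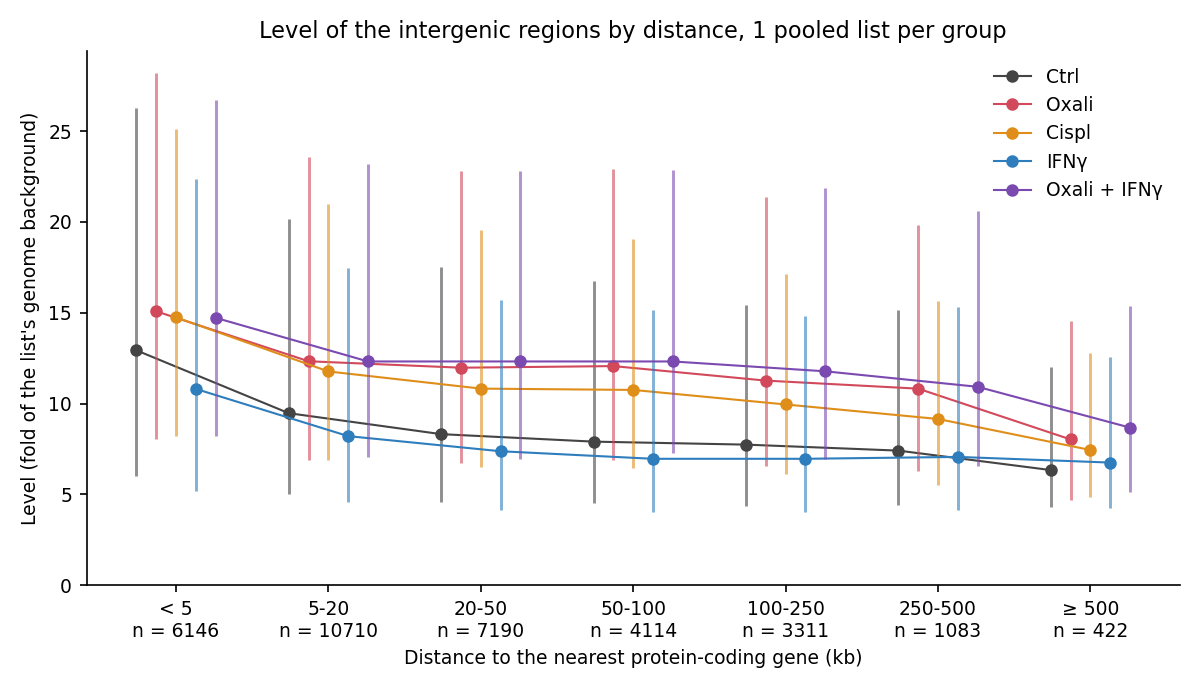
Median level of the intergenic regions (fold of the genome background of the list, y axis) by distance to the nearest protein-coding gene in kb (x axis), with a point for each of the 5 pooled lists and a bar from the 25th to the 75th percentile of the regions. Levels are highest under 5 kb, at 12.9 in Ctrl, lie almost flat from 20 to 250 kb and are lowest at 500 kb or more, where Ctrl has 6.34, and the bars of all lists overlap in each distance class.

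The distance classes also differed in sequence. The median GC content went from 48.4% under 5 kb to 43.2% at 500 kb or more, and the share of regions more than 50% masked as repeat was 14.1% under 5 kb, 11.0% at 50 to 100 kb and 44.1% at 500 kb or more. The CTCF match became rarer with distance, in 10.3% of regions under 5 kb, 7.41% at 20 to 50 kb and 2.13% at 500 kb or more. The AP-1 match was most frequent at 100 to 250 kb, in 32.1% of regions, against 22.7% under 5 kb. The part of masking and motif content in the levels was not tested, and without the regions more than 50% masked the median dropped by 1.14 in Ctrl, 0.92 in IFNγ, 0.90 in Cispl, 0.60 in Oxali and 0.56 in the combination from the nearest to the farthest class. The drop was thus larger in Ctrl and IFNγ and smaller in the platinum lists than with all regions. GENCODE M21 noncoding genes lay under 12.3% of the regions, which had a Ctrl median of 8.81 against 9.23 for the rest.

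The ratios of the platinum lists to Ctrl were largest at middle distances from genes, while that of IFNγ was lowest near genes. The median log2 ratio of Oxali to Ctrl was 0.09 under 5 kb, 0.21 at 5 to 20 kb, 0.33 at 20 to 50 kb, 0.41 at 50 to 100 kb, 0.42 at 100 to 250 kb, 0.34 at 250 to 500 kb and 0.12 at 500 kb or more. For Cispl it went from 0.06 under 5 kb to 0.25 at 50 to 100 kb, and was 0.10 at 250 to 500 kb. For Oxali + IFNγ it went from 0.08 under 5 kb to 0.46 at 100 to 250 kb and was 0.20 at 500 kb or more. For IFNγ it climbed from -0.23 under 5 kb to -0.09 at 100 to 250 kb and 0.05 at 500 kb or more, near or above the -0.25 of all regions in each class. Cispl lay below Oxali in every distance class, by -0.07 under 5 kb and by -0.25 at 250 to 500 kb, against -0.13 over all regions, so the nearest 2 classes lay above that shift and the classes from 20 to 500 kb below it. Weak regions are more frequent far from genes, and strong regions had smaller ratios with Oxali. Split into 3 classes of 10992 by mean level over the lists, the weak class had a median Oxali ratio of 0.37, the middle class 0.37 and the strong class 0.09. Within the middle class alone the Oxali ratio was 0.18 under 5 kb and 0.54 at 50 to 100 kb, and within the strong class it was -0.03 and 0.23. For Cispl the 3 classes had 0.37, 0.30 and -0.12, and the middle class had 0.22 under 5 kb and 0.38 at 50 to 100 kb.

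**Figure D2:**
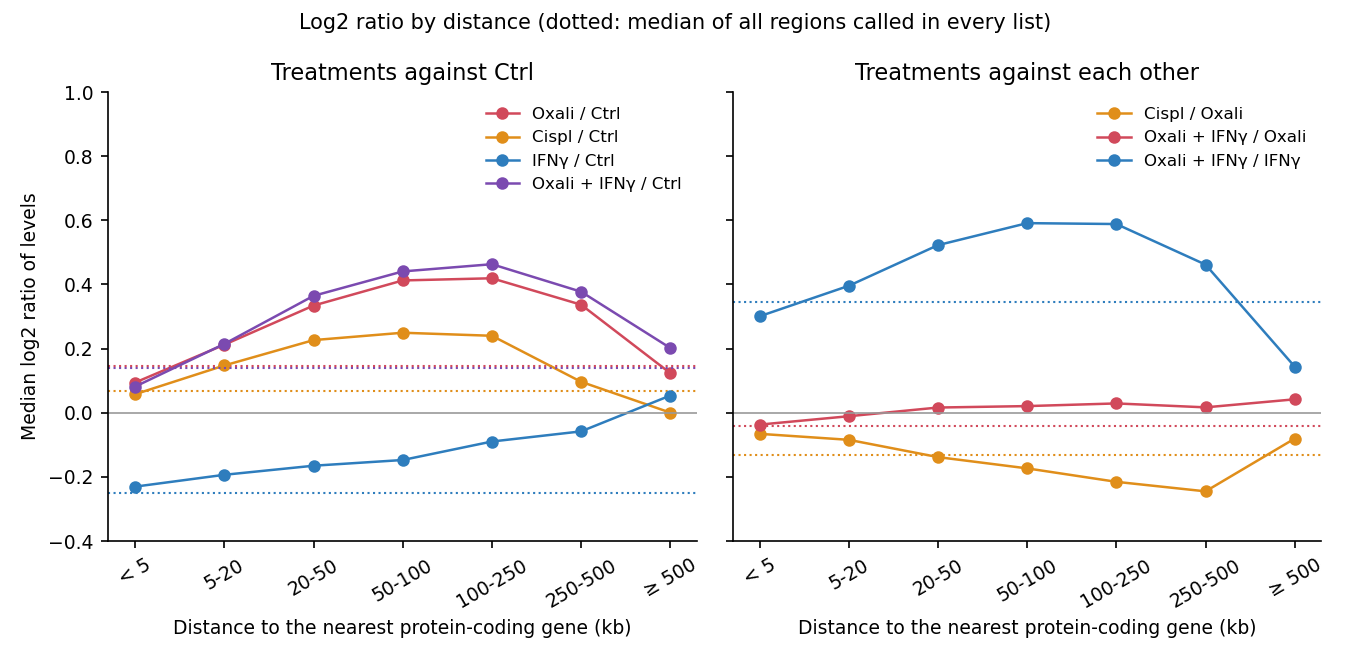
Median log2 ratio of levels (y axis) of the intergenic regions by distance to the nearest protein-coding gene in kb (x axis), for the treatments against Ctrl (left) and against each other (right), with dotted lines at the median of all 85377 regions called in every list. The Oxali line rises from 0.09 to 0.42 at 100 to 250 kb and returns to 0.12, the IFNγ line climbs from -0.23 to 0.05, and the line of Oxali + IFNγ to Oxali stays near 0.

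With Oxali, 5503 intergenic regions (16.7%) were raised 2-fold and 223 (0.676%) lowered, where 13.8% and 0.785% of all regions called in every list were. The median log2 ratio was 0.26, which is 0.12 above that of all regions, and at start-site regions it was -0.25. With Cispl, 3578 (10.9%) were raised and 339 (1.03%) lowered, where 9.9% and 1.98% of all regions were. The median was 0.16, and at start-site regions -0.40. With Oxali + IFNγ, 6146 (18.6%) were raised and 505 (1.53%) lowered, where 15.6% and 6.57% of all regions were, with a median of 0.28 against -0.47 at start sites. The regions in gene bodies were much like the intergenic ones, with 15.6% raised with Oxali, 12.2% with Cispl and 17.8% with the combination, and medians of 0.25, 0.18 and 0.26. With IFNγ, 187 (0.567%) were raised and 675 (2.05%) lowered, where 0.437% and 2.83% of all regions were, with a median of -0.18 that lay 0.07 above that of all regions.

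These splits depend on how lists are put on 1 scale. With the median ratio of all regions set to 0, 4147 regions were raised and 436 lowered with Oxali, 3017 and 491 with Cispl, 4916 and 880 with Oxali + IFNγ, and 730 and 136 with IFNγ, so that IFNγ turned from 21.7% to 84.3% raised among its changed regions. With the median level of all regions set equal, which takes out offsets from Ctrl of 0.37 for Oxali and -0.23 for IFNγ on the log2 scale, raised regions made up 67.8% of the changed ones with Oxali in place of 96.1%. They made up 59.2% in place of 91.3% with Cispl, 60.4% in place of 92.4% with Oxali + IFNγ and 80.1% with IFNγ. No direction of the intergenic regions as a whole can therefore be read for IFNγ.

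The 2 platinum drugs were given at the same dose and time and can be set side by side. Cispl was 2-fold above Oxali at 265 regions (0.804%) and below it at 1023 (3.10%), where 1.05% and 2.37% of all regions were. The median was -0.12, and 0.01 once the shift of all regions is taken off. With the median ratio of all regions set to 0 there were 471 raised and 564 lowered, and the raised share moved from 20.6% to 45.5% of the changed regions. Oxali + IFNγ and Oxali were almost the same at these regions and at gene-body regions. Only 42 intergenic regions (0.127%) were raised 2-fold and 49 (0.149%) lowered, where 0.122% and 0.334% of all regions were. In gene bodies 0.161% and 0.145% were, and 49.99% of the intergenic regions lay higher in the combination. Against IFNγ alone, Oxali + IFNγ was raised 2-fold at 7601 regions (23.1%) and lowered at 305 (0.925%), where 19.9% and 0.766% of all regions were, with a median of 0.45. The 305 lowered regions were repeat-rich, with a median of 85.8% masked, against 16.6% over all intergenic regions. Regions lowered 2-fold by Oxali + IFNγ against Ctrl lay near genes, 26.9% of them under 5 kb against 18.6% of all, and 16.8% held an SP/KLF match against 3.57%.

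The ratios differed with the binding motifs that a region held. In each region 1 window was searched, within 100 bp of the summit of the strongest Ctrl peak. It was read on either strand for exact matches to 17 consensus motifs, and 12651 regions (38.4%) held none. Other summits of a region were not searched, so a match or its absence describes that window only. AP-1 (TGANTCA) was the most frequent, in 9049 regions or 27.4%, against 24.1% of all regions called in every list, 27.7% of those in gene bodies and 12.8% of start-site regions. The regions with AP-1 had median levels of 8.90 in Ctrl and 8.94 in IFNγ, against 14.5 in Oxali, 11.4 in Cispl and 15.3 in the combination, so the oxaliplatin lists (Oxali and Oxali + IFNγ) stood apart and Cispl did not reach them. Their median log2 ratio was 0.49 with Oxali (0.18 without the motif), 0.55 with the combination (0.18), 0.20 with Cispl (0.15) and -0.02 with IFNγ (-0.23). A single factor for a list would move the ratios with and without a motif alike. The motif medians by the local background or by the mean of the summit pileups were not tested. Cispl against Oxali was -0.34 with AP-1 and -0.05 without it, and 609 of the 1023 regions lowered 2-fold in that comparison (59.5%) held the motif. The contrast grew with the number of matches. The 23927 regions with no AP-1 match had a Cispl to Oxali median of -0.05, the 7712 with 1 match -0.31, the 1217 with 2 matches -0.47 and the 120 with 3 or more -0.57. It was also present in each distance class, from -0.23 with the motif and -0.03 without it under 5 kb to -0.58 and -0.11 at 250 to 500 kb. Among regions raised 2-fold with Oxali 41.1% held AP-1, and among the 579 raised 4-fold (1.76%, where 1.43% of all regions were) 45.9% did.

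**Figure D3:**
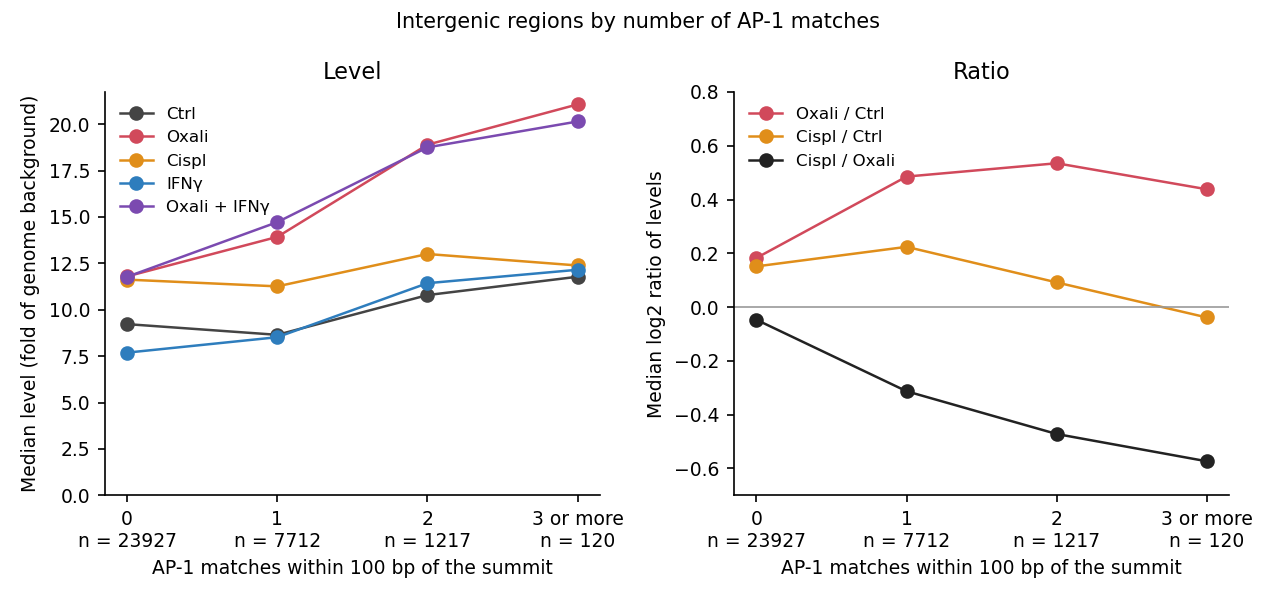
Median level (left, fold of genome background) and median log2 ratio (right) of the intergenic regions by the number of AP-1 matches within 100 bp of the summit (x axis), with 1 pooled list or comparison per line. Oxali and Oxali + IFNγ climb from 11.8 with no match to 21.1 and 20.1 with 3 or more matches, Cispl stays between 11.3 and 13.0, and the Cispl to Oxali ratio falls from -0.05 to -0.57.

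Regions with CTCF had the lowest ratio with Oxali among motifs found in at least 100 regions. In the regions with no AP-1 match, the SP/KLF median (-0.0014) and the ETS median (-0.02) lay just below that of CTCF (0.0017). The CTCF motif was found in 2520 regions (7.64%, against 6.48% of all regions) and 4.92% of these also held AP-1. Their median levels were 13.3 in Ctrl and 10.7 in IFNγ, against 13.7 in Oxali, 14.2 in Cispl and 13.5 in the combination. The median log2 ratio was 0.0013 with Oxali, 0.02 with Cispl, -0.01 with Oxali + IFNγ and -0.29 with IFNγ, that last value being close to the -0.25 of all regions. Whether they lay near Ctrl depends on the scale, since with the shift of all regions taken off the medians were -0.15 with Oxali, -0.05 with Cispl, -0.15 with the combination and -0.04 with IFNγ. CTCF was found in 1.51% of the regions raised 2-fold with Oxali and in 1 region of the 579 raised 4-fold, which is 0.173%. No region raised 2-fold with IFNγ held it.

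Regions with the steroid receptor motif, a palindrome bound by the glucocorticoid receptor and its relatives, had the largest ratios with Oxali and Cispl among motifs found in at least 100 regions. The motif was in 782 regions (2.37%, against 2.21% of all regions), 21.4% of which also held AP-1. Their median levels were 13.1 in Ctrl and 10.1 in IFNγ, against 24.0 in Oxali, 20.5 in Cispl and 22.1 in the combination. The median log2 ratio was 0.58 with Oxali, 0.47 with the combination, 0.38 with Cispl and -0.33 with IFNγ. In the regions with no AP-1 match these were 0.54, 0.46, 0.38 and -0.35. Of the 782 regions 245 were raised 2-fold with Oxali and 1 lowered, and among the 165 regions raised 4-fold with Cispl (0.50%, where 0.519% of all regions were) 12.1% held the motif. This motif and CTCF thus stood at opposite ends with Oxali and close together with IFNγ.

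With Oxali the other motifs lay between. TEAD (ACATTCC, bound by the factors that pair with YAP) was in 1737 regions (5.27%, against 4.94% of all), with 0.45 for Oxali, 0.16 for Cispl and -0.33 for Cispl against Oxali, or -0.28 in those with no AP-1 match. RUNX (TGTGGTT) was in 3125 regions (9.48%, against 8.73%), with 0.40 for Oxali and 0.22 for Cispl. The NF-kB motif, bound by the Rel family of inflammatory signalling, was in 699 regions (2.12%, against 2.24%), with 0.41 for Oxali, 0.19 for Cispl and -0.16 for IFNγ. In the 492 of them without AP-1 the Oxali median was 0.24. The ISRE, bound by interferon regulatory and STAT factors, was in 714 regions (2.17%, against 1.88%). Its medians were 0.46 with the combination, 0.35 with Oxali, 0.28 with Cispl and -0.17 with IFNγ, and it was in 7 of the 42 regions (16.7%) raised 2-fold in the combination over Oxali. Forkhead (TGTTTAC) was in 1642 regions (4.98%, against 4.76%), with 0.28 for Oxali and -0.25 for Cispl against Oxali. In gene bodies the shares were higher than in the intergenic regions for the steroid receptor motif (2.73%), TEAD (5.67%), RUNX (10.2%) and forkhead (5.70%).

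The remaining motifs found in at least 100 regions had Oxali ratios near or below the 0.26 of the intergenic regions as a whole. C/EBP (TTGCNNAA) was in 9.02% of regions (7.96% of all), with 0.28 for Oxali. GRHL (AACCNGTT) was in 1.67% (1.57%), HOXB13 (CCAATAAA) in 0.728% (0.647%) and the site of the GATA factors (AGATAAG) in 1.70% (1.61%), with Oxali medians of 0.23, 0.21 and 0.13. The Myc E-box (CACGTG) was in 3.71% (4.29%), with 0.23 for Oxali and -0.28 for IFNγ. The GC-rich ETS motif (CCGGAAG, 1.34% against 3.29% of all) and SP/KLF motif (CCCGCCC, 3.57% against 9.55%) are typical of promoters and were rare here. ETS regions had medians of 0.06 with Oxali and -0.04 with Cispl, and SP/KLF regions 0.05 and -0.13. Only 25 regions held the NFI motif (0.0758%, against 0.0656%) and 3 the p53 motif, too few to describe. The 12651 regions with no match had 0.18 with Oxali and 0.18 with Cispl. A motif match is a match of letters and does not show that a factor was bound.

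**Figure D4:**
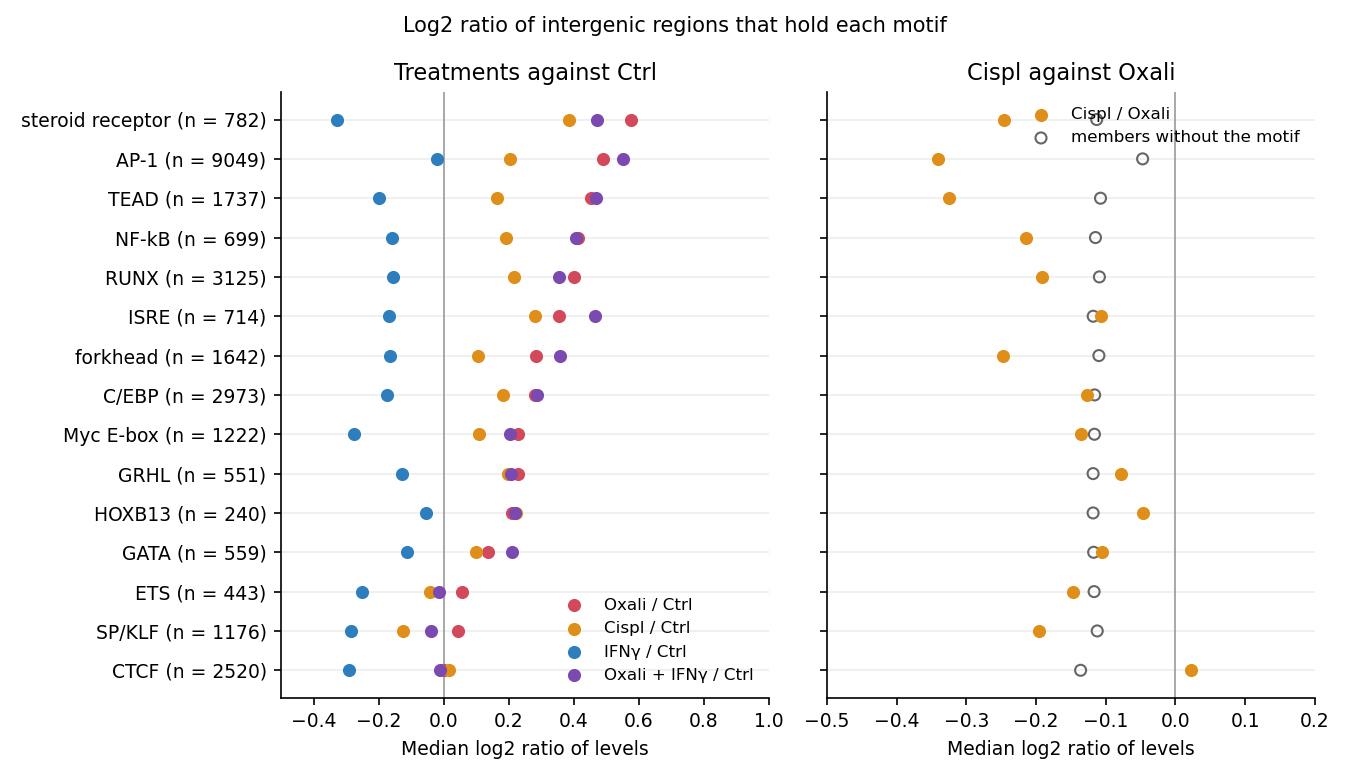
Median log2 ratio of levels (x axis) of the intergenic regions that hold each motif (y axis, motifs in at least 100 regions), for treatments against Ctrl (left) and for Cispl against Oxali (right, with open circles for the regions without that motif). Steroid receptor and AP-1 regions lie farthest right with Oxali, at 0.58 and 0.49, CTCF regions lie near 0 on this scale, and AP-1 and TEAD regions lie lowest in Cispl against Oxali, at -0.34 and -0.33.

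The largest single shifts were found among regions with a mean pileup of at least 100 over the lists, 20679 of the 32976, or 62.7%. Coordinates are those of mm10, and the errors given with the log2 ratios are standard errors from counting reads alone. The largest ratio was near Itm2a, at chrX:107455524-107457236, a region 52.1 kb upstream of that membrane protein gene. Its pileup was 38 in Ctrl and 65 in IFNγ, against 715 in Oxali, 224 in Cispl and 635 in the combination, which gave levels of 3.13, 63.4, 16.3, 6.76 and 49.2. Ctrl was the lowest list and the oxaliplatin lists far above the rest, with a log2 ratio of 4.34 ± 0.24 for Oxali and 2.38 ± 0.25 for Cispl. The region is 51.8% masked and its local background rose with its level, to 7.52 times the genome background in Oxali. Against that local background the deposited fold was 2.97 in Ctrl and 6.21 in IFNγ, against 8.35 in Oxali, 7.88 in Cispl and 8.15 in the combination, so by that measure the 3 platinum lists lay close together.

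The region at chr5:25604295-25605309 lay 84.5 kb downstream of Xrcc2, a gene of homologous recombination. Its pileup was 22 in Ctrl and 22 in IFNγ, against 247 in Oxali, 246 in Cispl and 258 in the combination. Here the 3 platinum lists stood together, at levels of 17.9 to 21.9 against 1.81 in Ctrl and 2.29 in IFNγ. Its log2 ratios were 3.60 ± 0.32 for Oxali and 3.30 ± 0.32 for Cispl. Its deposited fold over the local background was 1.75 in Ctrl, 10.3 in Oxali and 10.6 in Cispl, log2 ratios of 2.55 and 2.60.

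The region highest with Cispl over Ctrl lay 89.4 kb downstream of Hpgd, whose enzyme degrades prostaglandins, at chr8:56410436-56411474. Its pileup was 24 in Ctrl and 25 in IFNγ, against 145 in Oxali, 277 in Cispl and 139 in the combination, so Cispl exceeded both oxaliplatin lists, with 3.35 ± 0.31 against 2.70 ± 0.32 for Oxali. With the mean pileup of its summits in place of the highest, the Cispl ratio was 2.23. A region 33.2 kb upstream of Grm8, a glutamate receptor gene, at chr6:28168352-28169185, held the steroid receptor motif and is 52.2% masked repeat. It had pileups of 33, 271, 311, 27 and 248. Its platinum levels were 19.2 to 24.0 and its Ctrl and IFNγ levels 2.72 and 2.81. A region 71.3 kb downstream of Mbd2, which encodes a methyl-CpG binding protein, at chr18:70697437-70698412, held an ISRE match and had pileups of 36, 287, 205, 38 and 424. It was highest in Oxali + IFNγ, at 3.47 ± 0.25 over Ctrl and 0.37 ± 0.11 over Oxali.

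Fewer regions were lowered as strongly. The lowest with Oxali lay 284 kb downstream of Gadd45g, a stress-induced growth arrest gene, at chr13:52132842-52134058. Its pileup was 899 in Ctrl and 466 in IFNγ, against 95 in Oxali, 425 in Cispl and 106 in the combination. Ctrl was the highest list, the oxaliplatin lists were alike and lowest, and Cispl and IFNγ lay between, with log2 ratios of -3.14 ± 0.16 for Oxali, -3.17 ± 0.15 for Oxali + IFNγ and -1.26 ± 0.08 for Cispl. Its local background was 4.79 times the genome background in Ctrl, and the deposited fold was 15.2 in Ctrl, 14.2 in IFNγ and 13.2 in Cispl, against 7.82 in Oxali and 7.70 in the combination. By that measure Cispl and IFNγ lay near Ctrl. Near Mtf2, a partner of the Polycomb repressive complex, a region at chr5:108027888-108028679 had pileups of 228, 49, 124, 94 and 45. All treated lists were below Ctrl there, with -2.11 ± 0.23 for Oxali and -2.43 ± 0.24 for Oxali + IFNγ, or -1.36 and -1.62 by the deposited fold. Near Lama5, a laminin of the basement membrane, the region at chr2:180238441-180239073 had pileups of 319, 69, 89, 194 and 120. The platinum lists were lowest, at -2.10 ± 0.19 for Oxali and -2.02 ± 0.17 for Cispl. A region 8.86 kb from Gm45871, at chr18:90601385-90602417, was lowest in the combination, with levels of 20.1, 10.6, 14.6, 8.63 and 3.56 and a log2 ratio of -2.50 ± 0.23.

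**Figure D5:**
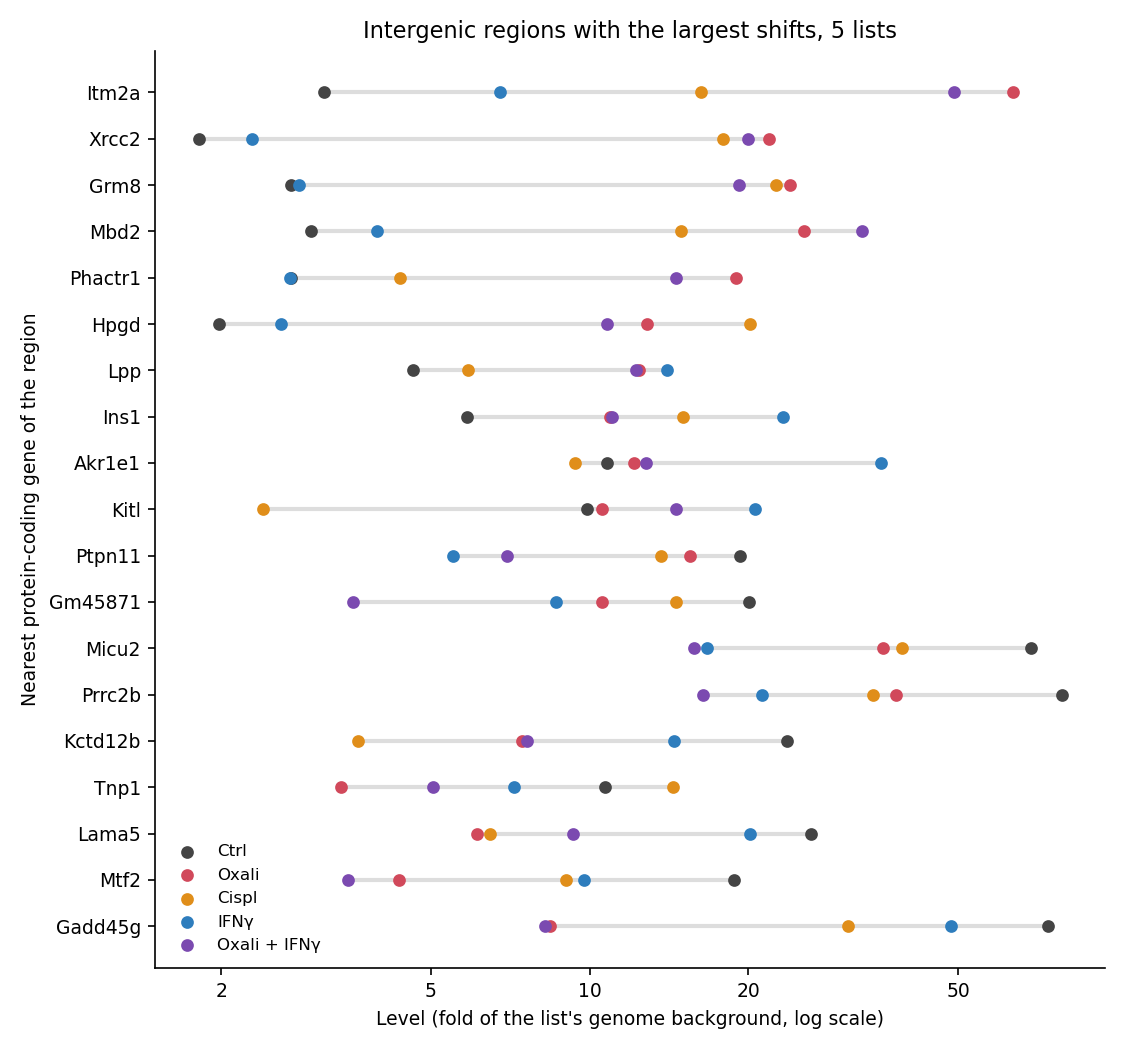
Levels in the 5 pooled lists (x axis, fold of the genome background, log scale) of 19 of the 20 intergenic regions with the largest ratios under the naming rule, each named by its nearest protein-coding gene (y axis, ordered by the Oxali to Ctrl ratio). At the top the oxaliplatin lists lie far right of Ctrl, from 3.13 to 63.4 near Itm2a, and at the bottom far left of it, from 74.1 to 8.43 near Gadd45g.

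Several regions separated the 2 platinum drugs. The region at chr10:100152243-100153192 lay 51.8 kb downstream of Kitl, the gene of the KIT ligand. Its pileup was 120 in Ctrl and 198 in IFNγ, against 119 in Oxali, 33 in Cispl and 188 in the combination. Only Cispl was low, at -2.14 ± 0.28 against Oxali. Near Phactr1, a regulator of actin and protein phosphatase, the region at chr13:42651600-42652314 with AP-1 and RUNX matches had 33, 214, 60, 26 and 188. The oxaliplatin lists were high, with Cispl far below them at -2.12 ± 0.21 against Oxali, and the levels of the other 3 lists were 2.72 in Ctrl, 2.70 in IFNγ and 4.36 in Cispl. In the other direction a region 20.6 kb upstream of Tnp1, a spermatid chromatin gene, at chr1:73036509-73037124, had 130, 38, 198, 69 and 65, with 2.09 ± 0.26 for Cispl against Oxali. A region 3.42 kb downstream of Kctd12b, at chrX:153680805-153681732, had 287, 84, 50, 139 and 98, and was lowest with Cispl at -2.70 ± 0.22.

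IFNγ gave the fewest large shifts of the single agents, with 2 regions raised 4-fold and 1 lowered, where 0.00234% of all regions were raised and as many lowered. Oxali had 579 raised and 4 lowered, and Cispl 165 and 4, where 0.00703% of all regions were lowered with Oxali and 0.00586% with Cispl. With the median ratio of all regions set to 0 the counts were 5 and 0 with IFNγ, 402 and 5 with Oxali, and 127 and 4 with Cispl. With a mean pileup of at least 100, the highest IFNγ ratio was in a region at chr19:52033816-52034287, 230 kb from its nearest gene Ins1, an insulin gene. That region is 100% masked repeat, with pileups of 71, 123, 207, 224 and 142 and a ratio of 1.99 ± 0.20. The second was the region with 5 AP-1 matches near Akr1e1, an aldo-keto reductase gene, at chr13:4778338-4778769 and 169 kb from the gene. Its pileup was 131 in Ctrl and 343 in IFNγ, against 137 in Oxali, 129 in Cispl and 165 in the combination. IFNγ alone stood apart there, at 1.72 ± 0.15 (1.08 by the deposited fold), and the combination was 0.24 ± 0.17. At chr16:24277236-24278051, 115 kb from Lpp, a focal adhesion gene, pileups were 56, 140, 81, 135 and 158, and IFNγ and both oxaliplatin lists were high. The lowest with IFNγ lay near Micu2, a regulator of the mitochondrial calcium uniporter, at chr14:57911353-57912785, and is 55.0% masked repeat. It had pileups of 835, 406, 538, 161 and 204 and a ratio of -2.04 ± 0.12, or -1.23 by the deposited fold. Near Prrc2b, at chr2:32132541-32133190, pileups were 954, 430, 474, 204 and 212. At chr5:121078383-121079041, 51.5 kb from Ptpn11, the gene of the phosphatase SHP2, they were 234, 175, 188, 53 and 90. In these 3 lowered regions both lists with IFNγ were the lowest.

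The steadiest regions had almost the same level in each list. Near Slc44a5, a choline transporter family gene, at chr3:153962083-153962313, the levels were 18.4, 18.4, 17.9, 18.2 and 18.4, a range of 0.04 on the log2 scale. Near Ppara, a receptor that controls fatty acid oxidation, the CTCF region at chr15:85715869-85716658 had levels of 25.0, 25.7, 25.9, 25.3 and 25.4. Near Igf1, the gene of insulin-like growth factor, at chr10:87854481-87854757, they were 8.73, 8.87, 8.79, 8.52 and 8.68.

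The intergenic regions had 10105 nearest genes in all, with a median of 2 regions for each gene. Of these genes 3780 had 1 region and 557 had 10 or more. Eda2r, a receptor of the tumour necrosis factor family, was nearest to 146 regions, and Pgr15l on the same stretch of the X chromosome to 73. Myc was nearest to 58, over chr15:61511419-62803113, and Klf6, a zinc-finger factor, to 47. The local background of the regions near Eda2r and Pgr15l had medians of 9.22 and 7.57 times the genome background in Ctrl, against 1.53 near Myc and 1.28 near Klf6. Near Eda2r the median level was 18.3 in Ctrl and 23.3 in IFNγ, against 18.1 in Oxali and 21.7 in Cispl, with the combination between these, so IFNγ was highest there. Its median IFNγ ratio was 0.33 and that near Pgr15l was 0.35, while over all intergenic regions it was -0.18. The part of the local background in these ratios was not tested. Near Myc the medians were 12.2, 17.3, 14.0, 11.2 and 18.2, with the oxaliplatin lists high, 11 of 58 regions raised 2-fold with Oxali and none lowered, and -0.49 for Cispl against Oxali.

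Some of the highest levels of all, measured over the genome background, belonged to the same stretch. The highest was at chrX:97639117-97640779 near Eda2r, with 669 in Ctrl and 647 in IFNγ, against 998 in Oxali, 681 in Cispl and 911 in the combination. The third lay 1140 kb from Galc, the gene of a lysosomal lipid hydrolase, at chr12:97061363-97061855, with 599, 722, 706, 512 and 511, and the fourth and the fifth lay near Eda2r. The local background in Ctrl was 46.6 times the genome background at the highest and 16.5 times at the Galc region, and the deposited fold over it was 14.3 and 36.1, so by that measure the Galc region stood above. Regions with gaps of up to 12.5 kb were joined into chains, and 72.3% of the regions were in chains of 2 or more. The chain with the most members had 112 over 376 kb of the X chromosome near Eda2r, and other large chains had 107 over 379 kb near Eda2r and Pgr15l, 53 near Atg7 and Hrh1 on chromosome 6, and 41 near Klf14 and Mkln1 on the same chromosome. The Klf14 chain had medians of 37.0 in Ctrl and 32.8 in IFNγ, against 48.9 in Oxali, 40.6 in Cispl and 49.4 in the combination, and its local background was 8.49 times the genome background.

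Regions were last grouped by the pathway of the nearest gene. Counts near a list, where given, stand beside those of all intergenic regions. Of these, 16.7% were raised 2-fold and 0.676% lowered with Oxali, and 10.9% and 1.03% with Cispl. With the combination the shares were 18.6% and 1.53%, and with IFNγ 0.567% and 2.05%. Counts for the prostate lineage regulators are not reported here. Near them the largest shift was 145 kb from Sox9, a factor of epithelial progenitors, at chr11:112636687-112637355, with pileups of 29, 184, 144, 28 and 209 and 2.77 ± 0.29 for Oxali. The 13 steroid receptor response genes had 69 regions, with 12 raised and 3 lowered with Oxali and a median of -0.03. Without Sgk1, nearest to 17 of them, the 52 regions had 11 raised and 2 lowered and a median of 0.10. The largest shift of this list was near Steap4, a metalloreductase gene, at chr5:7932103-7933244, with 80, 261, 238, 69 and 290 and 1.81 ± 0.18 for Oxali.

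The interferon signalling genes had few intergenic regions. Of 25 genes found, 12 had 44 regions, of which 10 were raised and 0 lowered with Oxali, 8 and 2 with Cispl, 10 and 0 with the combination, and 0 and 0 with IFNγ. Their medians were 0.38, 0.24, 0.53 and -0.20 in that order. The largest shift was 46.6 kb upstream of Jak2, the kinase of the IFNγ receptor, at chr19:29204005-29205186, with 194, 700, 610, 137 and 830 and 2.01 ± 0.12 for the combination. Its local background rose too, from 1.26 times the genome background in Ctrl to 3.47 times in the combination, and the deposited fold was 12.0 in Ctrl and 18.2 in the combination. The NF-kB signalling genes had 63 regions, 9 raised and 1 lowered with Oxali, with medians of 0.29 for Oxali and 0.03 for Cispl. Near Nfkb1, the gene of the p105 precursor of an NF-kB subunit, at chr3:135718664-135719883, pileups were 59, 98, 150, 82 and 191, with Ctrl lowest and 1.61 ± 0.21 for Oxali + IFNγ, where the deposited fold was 8.88 against 4.57 in Ctrl.

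The AP-1 family genes had 64 regions, 5 raised and 2 lowered with Oxali, with a median of 0.03. The largest shift was 20.1 kb downstream of Fos, the region with the NF-kB match at chr12:85497326-85498410, with 99, 272, 268, 74 and 426 and 2.02 ± 0.16 for Oxali + IFNγ, where the deposited fold was 9.69 against 3.83 in Ctrl. Genes of the epithelial to mesenchymal transition had 59 regions, 7 raised and none lowered with Oxali, and a median of 0.43. Near Tgfbi, a matrix protein gene, at chr13:56664213-56665411, pileups were 28, 164, 80, 35 and 217, with 2.66 ± 0.30 for Oxali. The Myc family had 87 regions, 16 raised and 0 lowered with Oxali, and its largest shift lay inside Pvt1, the noncoding gene beside Myc, at chr15:62245187-62245873. That region held an AP-1 match and had pileups of 42, 192, 136, 50 and 337, so Oxali + IFNγ was highest, at 2.92 ± 0.24.

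The p53 targets had 216 regions, 146 of them near Eda2r, with medians of -0.02 with Oxali, 0.13 with Cispl and 0.26 with IFNγ. Without Eda2r the 70 regions had medians of -0.06 with Oxali, -0.09 with Cispl and -0.26 with IFNγ, with 4 raised and 2 lowered with Oxali, so the IFNγ median of this list turned with the regions near 1 gene. The largest shift was the region with 5 ISRE matches, at chrX:97680160-97681516 and 303 kb upstream of Eda2r. Its pileup was 997 in Ctrl and 734 in IFNγ, against 2675 in Oxali, 2479 in Cispl and 4023 in the combination. Oxali + IFNγ exceeded Oxali there by 0.39 ± 0.04 and Ctrl by 1.92 ± 0.05, and its local background was 22.0 times the genome background in Ctrl and 38.6 times in Oxali + IFNγ, with deposited folds of 3.72 and 8.07. The lists counted here hold 44 to 216 regions each, too few to call any of them particular.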

How the data were processed

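ATAC-seq peak lists of 5 groups of Myc-CaP cells, each from 2 pooled libraries, were analysed. According to the processing notes and methods, the authors trimmed reads with cutadapt, aligned them to mm10 with Bowtie2 2.2.8, removed low-quality, duplicate and mitochondrial reads, and called peaks per group with MACS2 2.1.0 at a p of 0.01, with shifted and extended read ends and no control sample. Peaks in blacklisted regions were then dropped. The deposited columns used were the fold enrichment (a ratio to the local background), the −log10 p-value and q-value, and the summit offset. The methods state a minimum number of usable read pairs for every library, and the exact depth of each is not given in the sources used here.

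From the deposited fold and −log10 p of each summit, the whole-number pileup and the local background were solved (at least 99.9985% of summits solved in each list, and 100% of 20000 simulated peaks). The lowest background of a list was taken as its genome background, and the level of a region is its highest pileup divided by that value. No count of single libraries was used, so no SD, replicate check or test was possible. Standard errors of log2 ratios cover counting of reads only, and extended reads from PCR are not independent molecules, so they are too small.

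Regions were merged at 1 bp of overlap and annotated with GENCODE M21. Intergenic regions avoided windows of 1000 bp around transcript starts and protein-coding gene bodies. Distance is to the nearest protein-coding gene body. Each region was read against all regions called in every list. Sequences came from mm10, and 17 consensus motifs were matched exactly, on both strands, within 100 bp of the strongest Ctrl summit of each region. The sites of CTCF, NF-kB, p53, NFI, interferon regulatory factors (ISRE) and steroid receptors were searched as their usual consensus. Named regions were those with a mean pileup of at least 100 and the 3 largest ratios each way against Ctrl (2 each way for Cispl against Oxali), plus the 5 highest, the 3 steadiest and the largest shift of each of 8 gene lists, and some named items are not reported here. The regions and the gene lists were chosen with earlier results of these data known. Python 3.11.15, pandas 2.3.3, numpy 2.4.6, scipy 1.17.1, pysam 0.24.0 and matplotlib 3.10.9 were used.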

Additional observations from a re-analysis of the deposited data

How the results depend on the processing

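No paired analysis was possible because each list joins 2 libraries, so no replicate could be left out either. With the median level of all regions set equal, regions raised and lowered 2-fold numbered 2649 and 1258 with Oxali, 645 and 160 with IFNγ, 1829 and 1263 with Cispl, 3165 and 2079 with Oxali + IFNγ, and 419 and 626 for Cispl against Oxali. With the median ratio set to 0, chosen after seeing the data, 436 were lowered with Oxali and 880 with Oxali + IFNγ. IFNγ then had 730 raised and 136 lowered, and Cispl against Oxali 471 and 564. With the deposited fold over the local background as the level, 3428 were raised with Oxali, 2321 with Cispl, 3740 with Oxali + IFNγ and 105 with IFNγ, 190 were lowered with Cispl, and Cispl against Oxali had 165 and 475. With the mean of the summit pileups, 360 were lowered with Oxali, and Cispl had 2298 raised and 701 lowered. With a q-value of at most 1e-05, 138 were raised for Cispl against Oxali. Where each list had to cover 50% of the region, there were 2363 and 140 with Oxali, 109 and 407 with IFNγ, 100 and 536 for Cispl against Oxali, and 1194 raised with Cispl and 2692 with Oxali + IFNγ. The drop in log2 level from under 5 kb to 500 kb or more was then 1.21 in Oxali, 1.19 in Cispl and 1.06 in Oxali + IFNγ. With a start window of 5000 bp it was 0.74 in Ctrl, 0.69 in Oxali, 0.35 in IFNγ and 0.52 in Oxali + IFNγ. Without regions more than 50% masked it was 0.60 in Oxali, 0.92 in IFNγ and 0.56 in Oxali + IFNγ, and 122 regions were raised with IFNγ. Leaving out gene bodies of every type moved no count by over 1.5 times. The nearest gene of any GENCODE type gave no value for the distance difference, since no region lay more than 372.6 kb from one. None of the 34 log2 ratios of named regions changed sign, but 16 moved beyond their counting error with the fold over the local background, 13 with the mean of the summit pileups and 4 with the median levels set equal. With the fold over the local background the Oxali ratio near Itm2a was 1.49 in place of 4.34, and that near Gadd45g -0.96 in place of -3.14. With the mean of the summit pileups the Oxali ratio was 3.14 near Itm2a and 2.90 near Xrcc2 (3.60 with the highest), and the Cispl ratio 2.23 near Hpgd and 2.56 near Xrcc2 (3.30). Of the named shifts, 25 of 28 stayed named with a mean pileup of at least 50. Apart from the smaller number of regions under stricter rules, the cause of these moves was not tested. The exact depth of single libraries is unknown, and the part of the lower depth of the IFNγ list in the weak regions missing from it was not tested.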
